A study of Mus musculus with 6 samples.

Results

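The promoters of the cytosolic ribosomal protein genes were described in peak lists of histone H3 acetylated at lysine 27 (H3K27ac) from mouse retina. Members were the protein-coding genes of the GENCODE annotation of GRCm38 whose symbols begin with Rpl or Rps and a number, or are Rplp0, Rplp1 or Rplp2, without the Rps6k kinases and without pseudogenes. The rule gave 85 of 21938 protein-coding genes, of which 30 encode proteins of the small (40S) subunit, 43 proteins of the large (60S) subunit and 3 the acidic stalk of the large subunit. Another 9 matched the symbol rule and were set apart as paralogs, a retrogene or a ribosome-associated protein (Rpl3l, Rpl7l1, Rpl10l, Rpl22l1, Rpl36al, Rpl39l, Rps27l, Rps27rt and Rps19bp1). A promoter was the sequence within 2.5 kb of any annotated transcription start, and a gene was called marked in a list if a peak overlapped it by at least 1 bp.

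Each ribosome is built from ribosomal RNA and one copy of most of these proteins, so their genes are transcribed at high and matched levels in nearly every cell. Their messages usually begin with a cytosine followed by a run of pyrimidines (the TOP motif), through which the mTOR pathway controls their translation. H3K27ac is found on the nucleosomes beside the starts of active genes and at active enhancers, and many ribosomal protein genes also carry small nucleolar RNA (snoRNA) genes in their introns.

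The study asked whether repeated mild elevation of the intraocular pressure changes this mark in young tissue. Wild-type mice, 3 months old at the first elevation, had the pressure of a single eye raised to 30 mmHg for 1 h, biweekly and 4 times in all, and the whole retina was taken on day 2 from the fourth elevation. The 4xIOP group holds 3 of these retinas and the control group 3 retinas from untreated contralateral eyes. The submitters' treatment text also describes dasatinib or vehicle injections, which the labels of these 6 samples do not assign. Whole retina mixes many cell types, so that fewer acetylated cells and less acetylation per cell cannot be told apart.

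The lists held between 16195 peaks (4xIOP replicate 3) and 36509 peaks (control replicate 3). The name carried by the deposited list is that of the other group in control replicates 1 and 2 and in 4xIOP replicates 1 and 2, and that of the label in replicate 3 of both. Samples were not regrouped, directions hold for the groups as labelled, and values over the 2 matching lists are given beside the results. The shortest peak was longer than 200 bp in control replicate 1 and 4xIOP replicates 1 and 2, and shorter in the other 3 lists. Of 11 retinal marker genes 5 were marked in all 6 lists and 3 in none (Opn1sw, Arr3 and Rlbp1), while the 4 pigment epithelium, 4 microglia, 2 blood and 2 lens markers had no peak in any list. Of 4 genes of other organs (Alb, Apoa1, Myh6 and Ins2), Apoa1 had a peak in 1 list.

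To show what lies under the acetylated nucleosomes, 10 promoters were taken from RefSeq (GRCm38.p6), each from 60 bases before the annotated start to 20 bases from the start on, in the direction of transcription. They belong to the tallest promoters (Rpl22l1, Rpl27, Rps7), a wide promoter with a typical TOP start (Rps6), the lowest ones (Rpl35, Rps24), a promoter missed in 2 lists (Rps10), the retrogene (Rps27rt) and the paralogs without a peak (Rpl3l, Rpl10l). On the plus strand these were chr3:28805448-28805527 (Rpl22l1), chr11:101442185-101442264 (Rpl27), chr14:24490693-24490772 (Rps24) and chr17:24727766-24727845 (Rpl3l). On the minus strand they were chr12:28635934-28636013 (Rps7), chr4:86857348-86857427 (Rps6), chr2:39005112-39005191 (Rpl35), chr17:27635225-27635304 (Rps10), chr9:114982720-114982799 (Rps27rt) and chr12:66284382-66284461 (Rpl10l). Capitals mark the longest run of C and T that reaches within 10 bases of the start.
Rpl22l1: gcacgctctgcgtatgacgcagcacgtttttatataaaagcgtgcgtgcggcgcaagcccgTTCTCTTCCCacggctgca
Rpl27: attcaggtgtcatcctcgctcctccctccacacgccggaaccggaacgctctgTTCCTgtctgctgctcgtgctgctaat
Rps7: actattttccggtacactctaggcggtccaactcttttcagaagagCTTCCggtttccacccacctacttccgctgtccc
Rps6: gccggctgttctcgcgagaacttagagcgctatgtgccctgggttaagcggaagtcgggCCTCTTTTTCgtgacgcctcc
Rpl35: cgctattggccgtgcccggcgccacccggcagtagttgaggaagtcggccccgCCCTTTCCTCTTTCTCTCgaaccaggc
Rps10: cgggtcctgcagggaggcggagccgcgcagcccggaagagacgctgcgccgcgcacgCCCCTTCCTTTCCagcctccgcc
Rps24: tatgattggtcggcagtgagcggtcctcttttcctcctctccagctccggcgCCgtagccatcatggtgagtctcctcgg
Rps27rt: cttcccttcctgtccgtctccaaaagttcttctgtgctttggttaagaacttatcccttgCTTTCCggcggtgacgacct
Rpl3l: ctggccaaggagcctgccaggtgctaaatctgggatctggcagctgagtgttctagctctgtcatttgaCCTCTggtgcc
Rpl10l: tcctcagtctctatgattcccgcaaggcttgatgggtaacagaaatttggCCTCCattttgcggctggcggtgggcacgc

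The table held a promoter for 65 of the 85 members and for 16522 of all protein-coding genes. The start lay within 50 bp of the GENCODE start used for distances in 45 of the 65. A C at the start followed by 4 pyrimidines was found in 13 of 65 members (20.0%) and in 2.15% of all 16522 promoters. The share was 2.27% among promoters marked in all 6 lists, and 0 of 69 mitochondrial ribosomal protein promoters had it. Rps6, Rps10, Rpl35 and the retrogene Rps27rt were among the 13. A pyrimidine run of at least 8 bases reaching within 10 bases of the start was present in 41.5% of members and 13.3% of all promoters. In Rpl35 the run was 18 bases long and in Rps10 13 bases, whereas in Rps24 it was 2 bases at the RefSeq start. A longer run stands further upstream in the printed Rps24 sequence, and the GENCODE start, 35 bp from that of RefSeq, lies within it. The RefSeq start of Rpl35 lies 493 bp and that of Rps10 1425 bp from the GENCODE start, and shares depend on which base is annotated as the start.

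Other elements were counted on both strands of the 300 bases of each promoter (250 before the start and 50 after it), apart from TATAAA, which was sought on the sense strand 20 to 40 bases upstream. CCGGAAG, the core bound by ETS factors, was found in 35.4% of members, 36.2% of mitochondrial ribosomal protein promoters, 12.4% of all promoters and 22.6% of those marked in all 6 lists. GGGCGG, the core of Sp1 sites, was found in 60% of members, 48.5% of all promoters and 68.6% of those marked in all 6 lists, so that members lay between the others. TATAAA was found in 1 member (Rpl22l1) and in 2.80% of all promoters. AGATGGCG, a YY1 core, was present in 6.15% of members, 2.69% of all promoters and 5.04% of those marked in all 6 lists. For GATGGCGG, which overlaps it by 7 bases, these shares were 4.62, 2.51 and 4.68%, and for GCGCATGC, an NRF1 core, 4.62, 3.79 and 6.90%. Median GC content was 57.0% in members and in all promoters and 62.3% in those marked in all 6 lists. The ratio of observed to expected CpG was 0.861 in members, 0.602 in all promoters and 0.819 in those marked in all 6 lists. Among members, the 9 with a TOP start that were marked in all 6 lists had a median mean fold percentile of 77.5 and the 43 with another start one of 82.5. This split rests on the RefSeq start base, and Rps24, whose GENCODE start lies in a pyrimidine run, was counted with the other starts. These matches are descriptions of letters in a window.

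Nearly all ribosomal protein promoters were acetylated in the retina. Of the 85 members, 81, 80 and 81 were marked in the control lists, taken as replicates 1 to 3 here and in what follows (95.3, 94.1 and 95.3%). The 4xIOP lists marked 78, 79 and 74 of them (91.8, 92.9 and 87.1%). Among all protein-coding genes the share ranged from 44.6 to 56.9%. In all 6 lists, 69 members were marked (81.2%), against 39.5% of all protein-coding genes. This was 26 of 30 40S genes, 35 of 43 60S genes, the 3 stalk genes and 5 of the 9 set apart. Among related lists, 64 of 78 mitochondrial ribosomal protein genes, 29 of 40 proteasome subunit genes, 17 of 25 ribosome biogenesis genes and 15 of 16 other genes with TOP messages, mostly translation factors, were marked in all 6.

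**Figure D1:**
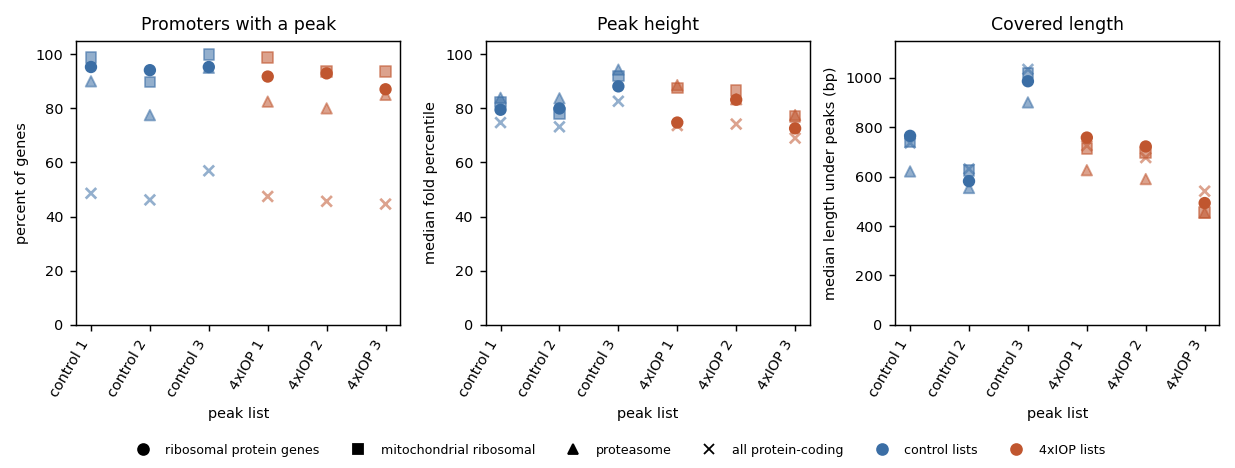
Share of promoters with a peak (percent of genes), median height percentile and median covered length (bp) in each of the 6 peak lists, with symbols for ribosomal protein, mitochondrial ribosomal protein, proteasome and all protein-coding genes and colours for the group. Ribosomal protein genes lie between 87.1 and 95.3% marked while all protein-coding genes lie between 44.6 and 56.9%, and the height and covered length of the marked promoters lie close to those of all genes.

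The 3 members without a peak in any list are paralogs. Rpl3l replaces Rpl3 in striated muscle, Rpl10l is a retrogene that takes over from the X-linked Rpl10 in male germ cells, and Rpl39l is a testis paralog of Rpl39. Their parent genes Rpl3 and Rpl10 were marked in all 6 lists and Rpl39 in 4. The other paralogs were marked: Rpl22l1 (paralog of Rpl22), Rpl36al, Rpl7l1, which acts in ribosome assembly, and Rps27l had peaks in all 6 lists, as did Rps19bp1, a nucleolar partner of Rps19. The height of Rpl22l1 was at or above percentile 96.3 in every list, whereas Rpl22 itself had no peak in control replicate 1 and 4xIOP replicate 2 and lay between 26.6 and 76.5 in the other lists.

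Rps27rt, an intronless copy of Rps27 on chromosome 9 (chr9:114982366-114982739, minus strand), was marked in control replicates 1 and 2 and in 4xIOP replicates 1 and 2. Its peaks were 220, 212, 276 and 279 bp long and lay over its own exon, with summits 101 to 141 bp from the start and 19 to 25 fragments. Reads from Rps27 and its copy may not be told apart in such a peak. The peak of control replicate 1 had the length of the shortest peak of that list.

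Another 12 ubiquitous genes missed a peak in at least 1 list. Rps10, a 40S protein at the messenger RNA entry, had no peak in 4xIOP replicates 2 and 3, and its summits in the other 4 lists lay 184 to 316 bp downstream of the RefSeq start whose TOP run is shown above. Rpl39 lacked a peak in control replicate 2 and 4xIOP replicate 3. Genes that lacked a peak in a single list included Rpl12, Rpl28, Rps15 and Rps4x in 4xIOP replicate 3, Rpl38 in 4xIOP replicate 1 and Rpl4 in control replicate 2. Among the genes named here, 3 had heights among the lowest of the members, with mean percentiles of 36.1 for Rps15, 37.4 for Rpl28 and 41.1 for Rps10 over the lists that marked them.

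Height was measured as the percentile of the promoter's highest fold enrichment among all peaks of the same list, a measure that also depends on how many peaks the list holds. The median over marked members was 79.5, 80.0 and 88.1 for the control lists, while the 4xIOP lists had 74.8, 83.2 and 72.6. Over all marked protein-coding genes the control lists had 74.7, 73.2 and 82.6, compared with 73.7, 74.2 and 69.0 for 4xIOP. Ribosomal protein promoters were thus 1.1 to 9.0 points above all marked promoters. Mitochondrial ribosomal protein genes (77.0 to 91.9) and proteasome genes (77.5 to 94.3) were also above all marked promoters in each of the 6 lists. Summit fragments relative to the list's background gave ratios of 0.922 to 1.06 between the medians of members and of all marked genes.

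Among the 69 members marked in all 6 lists the mean percentile ranged from 41.2 to 98.8. Rps20, a 40S protein of the subunit head, was the highest, with percentiles of 99.2, 99.2 and 99.4 for control, 98.3, 99.5 and 97.1 for 4xIOP, and fold enrichments from 7.95 to 12.2. Rpl22l1 (98.4), Rpl27 (97.1), Rpl7l1 (96.3) and Rps7 (96.1) followed by mean percentile. The lowest were Rpl35 (41.2), Rps24 (42.7), Rpl7 (45.3), Rps9 (50.8) and Rpl10 (51.5). For Rpl35, a protein at the exit of the peptide tunnel, control had 54.3, 18 and 64.6 and 4xIOP had 21.4, 58.2 and 30.8. These heights belong to different peaks, since the summit of the highest one lay between positions -2226 and -2085 bp from the start in the control lists and between 676 and 898 bp in the 4xIOP lists. The highest peaks of Rps9 and Rpl10 also changed side between lists. The groups overlapped for the 5 lowest apart from Rpl7. Rpl7 stood at percentiles 57.2, 59.4 and 68.2 under control against 22.5, 14.1 and 50.6 under 4xIOP. The stalk genes Rplp0, Rplp1 and Rplp2, whose products recruit translation factors to the ribosome, had mean percentiles of 75.7, 86.2 and 80.8.

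**Figure D2:**
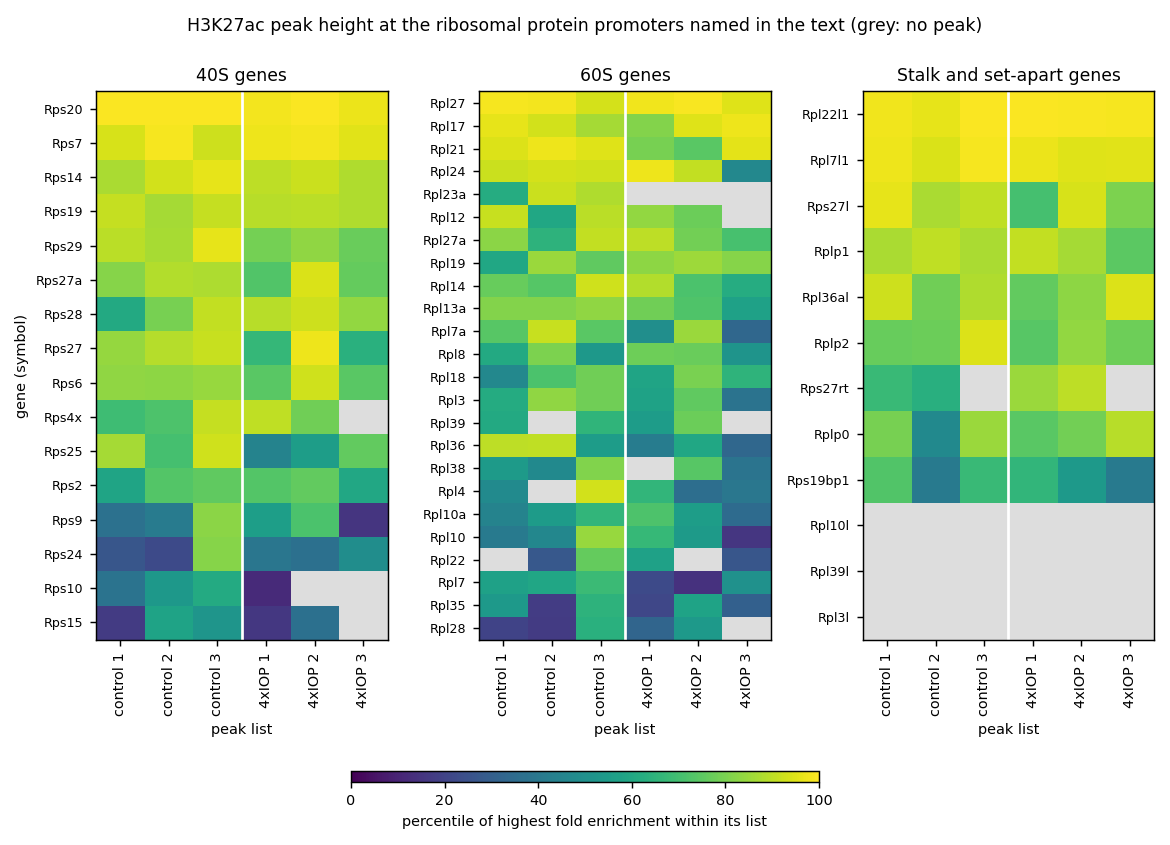
Height of the H3K27ac peak at the promoters of the ribosomal protein genes named in the text (rows, gene symbols) in each peak list (columns), as the percentile of the highest fold enrichment within its list, with grey where no peak was called. The genes are ordered by mean percentile, from Rps20 at 98.8 downwards among 40S genes, and the grey cells of Rpl23a lie in the 3 4xIOP lists.

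The order of the members was similar in all lists. Over the 69 members the rank correlation of heights between lists ranged from 0.543 to 0.744 for the 15 pairs, with a median of 0.653, and over all 8669 promoters marked in all 6 lists from 0.628 to 0.788. These points share libraries and base composition, so no test was made. Host genes of snoRNAs were frequent among members, 29 of 85 (34.1%, 55 snoRNA genes) against 1.25% of all protein-coding genes, and the hosts marked in all 6 lists had a median mean percentile of 82.9 against 80.6 for the other members. A protein-coding gene starting on the opposite strand nearby was found for 11.8% of members, 7.88% of all genes and 35.9% of mitochondrial ribosomal protein genes.

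The mark lay on both sides of the start and was sparse at the start itself. Across the 473 highest peaks of members in the 6 lists, 68.9% of summits were downstream of the start, with a median of 229 bp. In single lists, within the window of 1 start per gene, the downstream share was 64.2 to 73.1% for members and 68.9 to 74.8% for all marked genes, and the median summit lay at 200 to 248 bp and 189 to 206 bp. Summits were upstream of the gene in 30.0%, in an exon in 26.4% and in an intron in 43.6%, and 13.5% of these peaks covered the start. At the start base, 16.1, 7.50 and 25.9% of the marked members were under a peak for control, compared with 13.0, 17.9 and 9.46% for 4xIOP. Over all marked protein-coding genes the control shares were 32.1, 24.6 and 49.8%, and those of 4xIOP 32.2, 27.6 and 20.9%. In each of the 6 lists the members were lower at the start, by 9.67 to 23.8 percentage points. At 200 bp upstream they were higher in all 6 lists, with 29.7 to 67.9% of members and 24.5 to 50.8% of all marked genes under a peak. At 200 bp downstream the ranges were 64.9 to 88.9% and 71.7 to 85.4%.

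**Figure D3:**
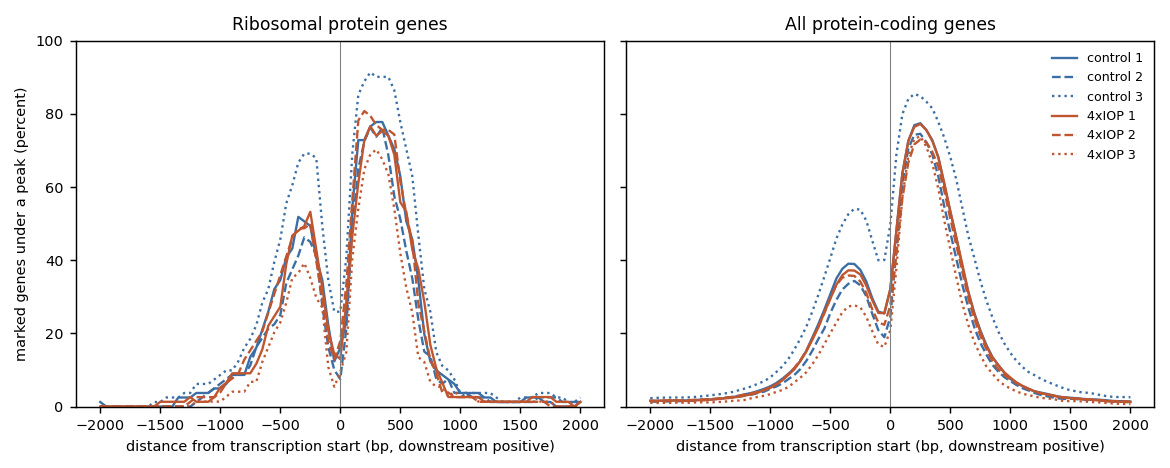
Percent of marked genes under a peak at each distance (bp) from the transcription start, for ribosomal protein genes and for all protein-coding genes, with a line for each of the 6 lists. The gap at the start is deeper for ribosomal protein genes (7.50 to 25.9% covered) than for all genes (20.9 to 49.8%), and the downstream shoulder is the taller one in both panels.

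Other ubiquitous genes were compared at the same base. Proteasome subunit genes had shares at the start from 5.88 to 31.6%, below the members in 3 lists and above them in 3. Mitochondrial ribosomal protein genes had shares from 13.7 to 56.4%, above the members in all 6. At 200 bp upstream the mitochondrial ribosomal protein genes had shares from 26.0 to 71.8%, above all marked genes in the 6 lists and above the members in 5. The comparison of these shares was not tested.

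The covered length, the part of the 5 kb around 1 start that lay under peaks, had a median over marked members of 765, 582 and 986 bp for control, while 4xIOP had 758, 722 and 493 bp. Over all marked genes the control medians were 736, 631 and 1034 bp and the 4xIOP medians 725, 677 and 541 bp, so that members lay above in 3 lists and below in 3. Among members marked in all 6 lists, the mean over lists ranged from 251.3 to 1295 bp. The widest were Rpl10a (1295 bp), Rpl27a (1220 bp) and Rps6 (1139 bp), the 40S protein phosphorylated by S6 kinase. Rpl18 (251.3 bp) and Rps24 (414 bp) were among the 3 narrowest. For Rpl18 the used start lies 2614 bp from that of RefSeq, and no peak reached its window in 4xIOP replicates 1 and 2.

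The comparison of the groups asks whether the recurring elevation altered the mark at these promoters. The share of marked members averaged 94.9% ± 0.679 for control against 90.6% ± 3.11 for 4xIOP (SD, n = 3), a difference of -4.31 percentage points, and the groups did not overlap. The difference was -8.63 points with peaks of −log10 q of at least 5 and -2.75 points with 16195 peaks kept in each list. Over all protein-coding genes the difference was -4.67 points with overlapping groups. For members it was -2.55 points without 4xIOP replicate 3, and -8.24 points between the 2 lists whose carried name is their label. It was -2.94 points among the 3 lists with longer shortest peaks and -7.64 points among the other 3. No test over members was made, because they were chosen with results of these data known.

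The lists of the groups overlapped in height and covered length. The median percentile averaged 82.5 ± 4.86 for control against 76.9 ± 5.6 for 4xIOP (SD, n = 3), with overlapping lists and a difference of -5.67. Over all genes the difference was -4.57. With each list limited to its 16195 peaks of highest fold, the number in the shortest list, the difference for members was -1.60. The value for members was -2.87 without control replicate 3, -3.54 without 4xIOP replicate 3 and -8.84 without 4xIOP replicate 2, and between the 2 matching lists it was -15.5. It was -0.510 in the class of longer shortest peaks and -11.4 in the other. The median covered length averaged 777.5 bp ± 202.5 for control against 658 bp ± 144 for 4xIOP (SD, n = 3), also with overlap. Its difference of -119.8 bp became -15.6 bp without control replicate 3, -37.5 bp without 4xIOP replicate 3 and -217.8 bp without control replicate 2. It was -25 bp in the class of longer shortest peaks and -290.8 bp in the other. Between the 2 matching lists it was -493 bp.

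Within the 69 members marked in all 6 lists, the 3 control percentiles all exceeded the 3 4xIOP percentiles for 4 genes (5.80%), among them Rpl7, Rpl13a and Rps29, against 11.4% of all 8669 such promoters. The opposite was true of 0 members and 0.438% of promoters. For summit fragments relative to the list's background, Rpl36 alone of the members was lower in 4xIOP without overlap (background 1.00%), and 0 members were higher (background 0.0346%). On this scale the median promoter of the table was shifted by -0.273 (log2) in 4xIOP and the median member by -0.247. For covered length, 12 of 68 members (17.6%) were lower in 4xIOP without overlap, against 12.3% of all 8385 promoters, and 0 were higher, against 0.0835%. They included Rps2, Rps25, Rps27a and Rps29 of the small subunit and Rpl3, Rpl7a, Rpl8, Rpl10a, Rpl13a, Rpl14 and Rpl17 of the large subunit. No test was made of these shares.

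In the fit of limma across the promoters marked in all 6 lists, on normal scores of the ranks within each list, 0 of 8669 promoters passed an adjusted p of 0.05 for height in either direction (background 0%). The smallest adjusted p was 0.9996, and 128 promoters were higher and 142 lower in 4xIOP at an unadjusted p under 0.05. Without any difference, 433 of the 8669 would be expected at that level in both directions together. Among the 69 members, 1 was higher and 0 were lower at that level. This was Rps28, a 40S protein near the exit of the messenger RNA channel, whose score differed by 0.80 ± 0.38 (SE), with an adjusted limma p of 0.9996. Control percentiles were 60.8, 79.5 and 90.7 and those of 4xIOP 89.4, 92.5 and 83.9, so the groups overlapped. The score of Rps28 was 0.49 without control replicate 1, and its log2 difference in relative summit fragments was 0.01. Rpl19 and Rplp0 followed, with scores higher by 0.76 ± 0.39 and 0.68 ± 0.41 in 4xIOP. On the other side, the score of Rpl36 differed by -0.98 ± 0.50, that of Rps25 by -0.77 ± 0.40 and that of Rpl21 by -0.69 ± 0.43. For Rps25 these heights belong to different peaks. The summit of the highest one lay at 756 and 710 bp from the start in control replicates 1 and 2, and between -67 and 153 bp in the other lists. Rpl36, a 60S protein, had percentiles of 90.1, 90.4 and 55.1 for control against 41.9, 59.4 and 33.5 for 4xIOP, with overlap. Its summits held 41, 50 and 46 fragments for control and 26, 26 and 20 for 4xIOP. The median score difference was 0.05 over members and 0.00 over all promoters. For members it was -0.02 without control replicate 2 and -0.07 without 4xIOP replicate 2, so its sign rested on single lists. The members at an unadjusted limma p under 0.05 were 0 higher and 1 lower with the replicate block. Without 4xIOP replicate 3 they were 1 higher and 3 lower.

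For covered length, 0 of 8385 promoters passed the adjusted limma threshold in either direction (background 0%), with a smallest adjusted p of 0.311. At an unadjusted p under 0.05, 137 were higher and 321 lower, where 419 would be expected in all without any difference. At that level 0 of 68 members were higher and 2 were lower. Rps25, a 40S protein used by some internal ribosome entry sites, was covered over 702, 652 and 1329 bp under control against 470, 247 and 508 bp under 4xIOP. Its score differed by -1.16 ± 0.49 (SE) with an adjusted limma p of 0.841, and the groups did not overlap. Rpl7a was covered over 1058, 856 and 1332 bp under control against 833, 765 and 209 bp under 4xIOP. Its score differed by -1.18 ± 0.53 (SE) with an adjusted limma p of 0.886, and by -0.47 without 4xIOP replicate 3. The members with the smallest p in the other direction were Rps14 (0.81 ± 0.40) and Rpl24 (0.68 ± 0.41). The highest peak of Rps14 lay at another start, 27307 to 27700 bp downstream of the start around which its covered length was taken. Scores are ranks within a list, and 45 of the 68 members had a higher score in 4xIOP, with a median difference of 0.17 against 0.06 for all promoters, whereas in base pairs the median member was narrower in 4xIOP. Without control replicate 3 the score was higher in 36 of 68 members with a median of 0.02 (0.01 for all promoters), and without 4xIOP replicate 2 the median of members was 0.07.

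**Figure D4:**
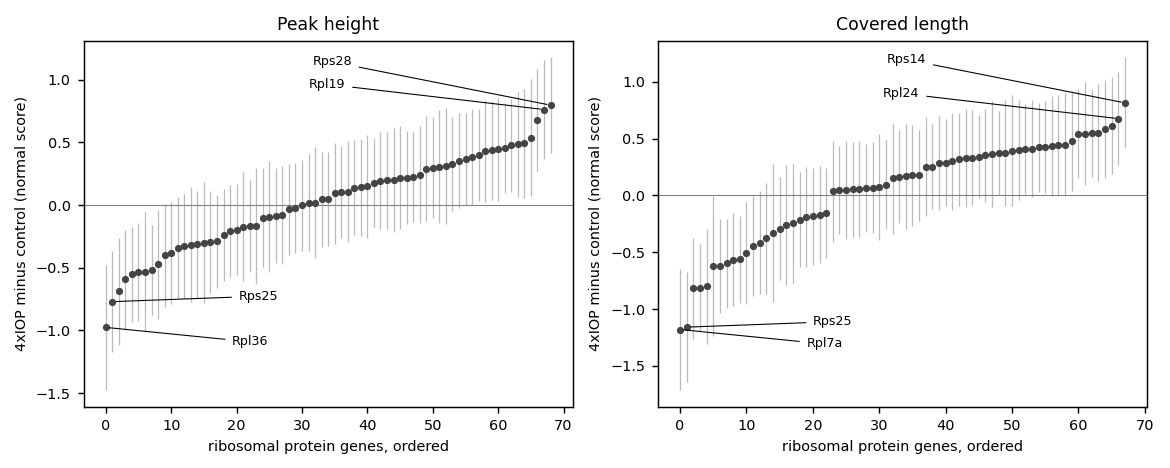
Difference between 4xIOP and control in the limma fit (normal scores of within-list ranks, points, with the standard error as bars) for the members marked in all 6 lists, ordered by size, for peak height and for covered length. The values run from -0.98 (Rpl36) to 0.80 (Rps28) for height and from -1.18 (Rpl7a) to 0.81 (Rps14) for covered length, and 0 members passed the adjusted threshold.

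Of the 85 members, 1 was marked in every control list and in no 4xIOP list, against 79 of all 21938 genes (0.360%), and 0 members and 0 genes (0%) showed the opposite. Over all genes these counts were 50 and 16 with the same number of peaks kept in each list, 82 and 36 without control replicate 3, and 277 and 2 without control replicate 2. This gene was Rpl23a (chr11:78180935-78183584, minus strand), a 60S protein beside the exit of the peptide tunnel. Its peaks in control replicates 1 to 3 had their summits in the first intron, 223, 203 and 213 bp downstream of the start, and those of replicates 2 and 3 began within the first exon. They held 27, 41 and 65 summit fragments, fold enrichments of 4.54, 6.48 and 7.44 and −log10 q values of 8.5, 18.5 and 33.3. The covered length was 328.7 bp ± 53.6 in control and 0 bp in the 3 4xIOP lists (n = 3, two-sided exact permutation p = 0.1, the smallest that 3 lists against 3 can give). The promoter was singled out for this pattern, so the test is a description.

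Among 6110 promoters whose −log10 q reached 8.5, the lowest control value of Rpl23a, in all 3 control lists, 5998 (98.2%) were marked in the 3 4xIOP lists. As both the limit and the gene were set by this pattern, the share is given as a description. Peaks about 5 kb upstream and 5 kb downstream of the start were called in each 4xIOP list. Among 4xIOP peaks at the local backgrounds recovered there, the fewest summit fragments in a called peak were 15 in each of the 3 lists. The gene carries 3 snoRNA genes. As the names of 2 of the control and 2 of the 4xIOP lists conflict with their labels, the pattern also depends on the labels, and control replicate 3 and 4xIOP replicate 3, whose names match, differed at Rpl23a in the same direction. Over those 2 lists, 7 members were marked in the control and not in the 4xIOP list (Rpl12, Rpl23a, Rpl28, Rpl39, Rps4x, Rps10 and Rps15), as were 12.5% of all genes.

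**Figure D5:**
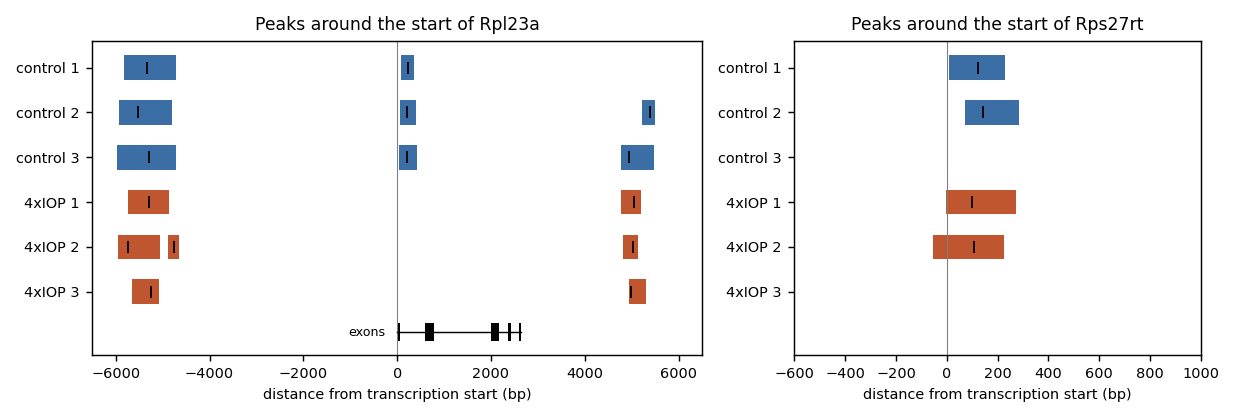
Peaks (bars, with the summit as a tick) around the start of Rpl23a and of the retrogene Rps27rt in each of the 6 lists, by distance from the transcription start (bp). Near the start of Rpl23a peaks of 270 to 375 bp stand in the 3 control lists and in 0 of the 3 4xIOP lists, while the peaks about 5 kb upstream stand in all 6.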

How the data were processed

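Retinal chromatin was precipitated with an anti-H3K27ac antibody in 3 control and 3 4xIOP samples. Per the labels, each eye's retina was processed singly, and which animal gave which sample is not stated. P-values therefore measure only the spread between these samples, which may be technical. The deposited narrowPeak lists hold the authors' fold enrichment (a ratio of summit pile-up to local background), −log10 p-value, −log10 q-value and integer score of each peak, called per sample. The score was not used. The submitters' processing notes name mm10, MACS2, STAR 2.7.8a, HOMER, edgeR and bedtools 2.29.2 without roles. Whether an input control was used is not given in the sources used here. The lists hold no read totals, and the study's methods give only an approximate read number common to the libraries. Under the Poisson model of the caller, fold and p returned whole fragments for 100% of peaks (within 0.001 on the −log10 scale). The mean background was 2.01 to 3.38 fragments and the fewest fragments at a summit 9 to 12.

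Starts were taken from GENCODE M21. Distances and covered lengths used 1 start per gene, that of the principal transcript. Within-list ranks were turned into normal scores and tested with limma 3.58.1 (R 4.3.3, Benjamini-Hochberg at 0.05) over all protein-coding promoters marked in all 6 lists. Single values were compared with two-sided exact permutation tests (scipy 1.17.1, Python 3.11.15). Scripts were tested on simulated data. Named genes were those not marked in all 6 lists, the 5 highest and 5 lowest in height, the 3 widest and 3 narrowest, those with the smallest limma p (3 per direction for height, 2 for covered length), the stalk genes and those set apart. Rpl13a, Rps29 and the other members without overlap were named from the counts they belong to, after their values were seen. Members, lists and the class of shortest peak length were chosen with earlier results of these data known. Same-numbered samples did not deviate together (correlations -0.0167, -0.0443 and -0.144), so replicate numbers were not used as pairs. Values of some genes that this rule or these counts take in are not reported here, though all members stay in the counts.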

Additional observations from a re-analysis of the deposited data

Results flagged for a closer look

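Peaks were also found over ribosomal protein pseudogenes, which are no members and enter no comparison above. They were singled out because each 4xIOP list held more of them than the highest control list. Of 287 processed pseudogenes of this family, 7, 12 and 2 had a peak in control replicates 1 to 3 (2.44, 4.18 and 0.697%) and 13, 17 and 13 in 4xIOP replicates 1 to 3 (4.53, 5.92 and 4.53%). The means were 7 ± 5 and 14.3 ± 2.31 (SD, n = 3). Over all 9940 processed pseudogenes the share was 0.674% ± 0.145 in control and 0.691% ± 0.137 in 4xIOP. In any list 19 of the 287 had a peak, in all 6 lists 2 (Rpl10a-ps1 and Rps6-ps4), and 1 lay in the promoter of a protein-coding gene. The retrogene Rps27rt was marked in replicates 1 and 2 of both groups. Pseudogenes share long stretches with their parent messages, and the part of read assignment in these counts was not tested.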

How the results depend on the processing

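The differences in the share of marked members, their median height percentile and their median covered length were negative under each alternative run for them. The median height score of members in limma (0.05) changed sign, to -0.02 without control replicate 2, -0.07 without 4xIOP replicate 2 and -0.000393 with the class of shortest peak as a term. For relative summit fragments, a log2 scale without ranking within lists, the median was -0.247 for members and -0.273 for all promoters. With peaks of −log10 q of at least 5, the difference in the share of marked members was -8.63 points, and between the 2 lists whose carried name is their label it was -8.24 points, -15.5 for the median height percentile and -493 bp for the median covered length. Members marked in control alone were 2 (Rpl23a and Rps10) with peaks of −log10 q of at least 5, 2 when each list was limited to its 16195 peaks of highest fold (share difference -2.75 points, height -1.60) and 7 over the 2 matching lists. With each list left out in turn, the difference in share ranged from -5.49 to -2.55 points, in height percentile from -8.84 to -2.87 and in covered length from -217.8 to -15.6 bp. Members marked in all lists ranged from 69 to 73, in control alone from 1 to 2 and in 4xIOP alone from 0 to 0, and the covered length difference of Rpl23a from -358 to -305.5 bp. In limma, 0 promoters were called for height and 0 for covered length with the stricter q, with promoters of 1 kb, with the class of shortest peak as a term and in each leave-one-out fit, and 0 for height with relative summit fragments and with consensus regions. No limma fit was made for the other alternatives. With the replicate block the count was also 0 for both, at unadjusted p under 0.05 with 108 higher and 129 lower for height and 112 higher and 329 lower for covered length. The block changed no call, and whether the replicate numbers pair the samples by animal is not stated. The remaining 98 values of the comparisons were counted as unchanged, by a rule for each kind. Group differences of members stayed within the spread between replicates, and counts within 1.5 times. The Rpl23a difference was judged by its sign alone, and limma fits by their 0 calls. The 102 refits of named genes kept their sign, but sizes moved. For height, Rplp0 went from 0.68 to 0.35 without control replicate 2 and Rpl36 from -0.98 to -1.73 without control replicate 3. For covered length, Rpl7a went from -1.18 to -0.47 without 4xIOP replicate 3. No listed summit held fewer than 9 to 12 fragments, depending on the list, and with 3 lists against 3 no single promoter can reach an exact p under 0.1.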
